A study of Homo sapiens with 15 samples.

Results

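The miR-99/100 and miR-125 families were followed as 10 mature miRNAs among the 1707 listed in miRNA-Seq libraries of U87-MG cells, a human glioblastoma line. The members were taken by name: hsa-miR-100-5p, hsa-miR-100-3p, hsa-miR-99a-5p, hsa-miR-99b-5p and hsa-miR-99b-3p of the miR-99/100 family, and hsa-miR-125a-5p, hsa-miR-125a-3p, hsa-miR-125b-5p, hsa-miR-125b-1-3p and hsa-miR-125b-2-3p of the miR-125 family. The prefix hsa-, for human, is left out from here on. All 10 were among the 562 miRNAs abundant enough to be tested. The study compared 4 kinds of cells after 24 h in 1% O2: Control cells with intact HIF genes, cells in which HIF1α was knocked out (HIF1α-KO), cells in which HIF2α was knocked out (HIF2α-KO), and cells that lacked both (HIF1α/HIF2α-KO). The knockouts were made by transduction with a CRISPR/Cas9 lentivirus (lentiCRISPRv2). A further group of Control cells was kept for 24 h in 21% O2. Each of the 5 groups had 3 libraries of total RNA, and total counts per library ranged from 10360337 to 22496373. Nothing in the labels says that the replicates were separate cultures, so the p-values measure the spread between these libraries, which may be technical, and the sources used here do not say whether the knockout cells were clones.

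miRNAs of about 22 bases are cut from hairpins, and each hairpin can give a 5p and a 3p product. The product loaded into Argonaute pairs with mRNAs mainly through its seed, bases 2 to 8, and lowers their output, while the other arm is mostly degraded. The miR-125 family is the vertebrate counterpart of the worm lin-4 miRNA, a regulator of developmental timing, and the miR-99/100 family is known for targeting MTOR and other genes of growth factor signalling. Both families are expressed in neural tissue and in gliomas. HIF1α and HIF2α are the oxygen-regulated subunits of the hypoxia-inducible transcription factors.

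The human genome carries a miR-99/100 hairpin, a let-7 hairpin and a miR-125 hairpin side by side at 3 loci. In the GENCODE annotation of GRCh38, MIR100, MIRLET7A2 and MIR125B1 lay at chr11:122099757-122152308 on the minus strand, within introns of transcripts of the lncRNA gene MIR100HG. MIR99A, MIRLET7C and MIR125B2 lay at chr21:16539089-16590325 on the plus strand, within introns of transcripts of the lncRNA gene MIR99AHG. These 2 loci spanned 52552 and 51237 bases. The third, with MIR99B, MIRLET7E and MIR125A at chr19:51692612-51693339 on the plus strand, spanned only 728 bases, within an intron of 1 transcript of SPACA6 and opposite an exon of SPACA6P-AS.

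The 5p members are shown first because their near identity limits what the counts can separate. The sequences are those of RefSeq (GRCh38.p14), with the seed in capitals.
miR-100-5p: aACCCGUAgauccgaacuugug
miR-99a-5p: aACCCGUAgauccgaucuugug
miR-99b-5p: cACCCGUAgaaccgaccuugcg
miR-125b-5p: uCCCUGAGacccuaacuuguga
miR-125a-5p: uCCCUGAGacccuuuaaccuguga

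The 3 miR-99/100 products shared the seed ACCCGUA, and both miR-125 products shared the seed CCCUGAG. With positions counted from 1 at the 5′ end, miR-100-5p and miR-99a-5p were alike over their first 15 bases and differed only by A16U. miR-99b-5p differed from miR-100-5p by A1C, U11A, A16C and U21C. miR-125b-5p and miR-125a-5p shared their first 13 bases, and miR-125a-5p was 24 bases long against 22. MIR125B1 and MIR125B2 give the same miR-125b-5p, so its count cannot be divided between chromosomes 11 and 21.

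The 3p members are shown because each belongs to 1 hairpin and so reports on a single locus. The 3p arm of MIR99A, which is not a member, is added for comparison.
miR-100-3p: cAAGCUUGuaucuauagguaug
miR-99a-3p: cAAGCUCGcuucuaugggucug
miR-99b-3p: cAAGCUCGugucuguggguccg
miR-125b-1-3p: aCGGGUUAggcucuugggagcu
miR-125b-2-3p: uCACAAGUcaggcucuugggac
miR-125a-3p: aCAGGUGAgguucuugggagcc

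Compared position by position from the 5′ end, miR-125b-1-3p and miR-125b-2-3p differed at 17 of their 22 positions and had different seeds. Both held the stretch aggcucuuggga, which starts further along in miR-125b-2-3p, so this count of differences understates their likeness. miR-99a-3p and miR-99b-3p shared a seed and differed by C9U, U10G, A14G and U21C.

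In the hairpins, printed with both mature arms in capitals, the 5p and 3p products face each other across a short loop.
MIR100: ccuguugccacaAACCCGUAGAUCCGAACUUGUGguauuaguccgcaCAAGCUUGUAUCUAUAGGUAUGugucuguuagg
MIR99A: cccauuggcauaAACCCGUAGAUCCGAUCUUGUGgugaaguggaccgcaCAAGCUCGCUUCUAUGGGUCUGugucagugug
MIR99B: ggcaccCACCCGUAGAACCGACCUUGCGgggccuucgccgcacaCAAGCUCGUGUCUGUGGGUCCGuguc
MIR125B1: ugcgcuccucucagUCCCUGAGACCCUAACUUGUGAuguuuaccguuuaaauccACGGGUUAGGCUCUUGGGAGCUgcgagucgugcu
MIR125A: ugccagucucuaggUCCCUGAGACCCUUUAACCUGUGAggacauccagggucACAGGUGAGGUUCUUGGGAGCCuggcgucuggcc

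The 5p members dominated these libraries. miR-100-5p ranked 1 or 2 and miR-99a-5p ranked 2 or 3 by count in every library, and miR-125b-5p ranked from 10 to 13. Levels are given as CPM, counts scaled to a common library total with TMM factors. Over the 15 libraries miR-100-5p lay between 123265 and 194244 CPM, miR-125b-5p between 13127 and 20774 CPM, miR-99b-5p between 2471 and 4135 CPM, and miR-125a-5p between 1810.0 and 3189 CPM. The 5p members together took 28.5% to 39.8% of all counts, and the 3p members 0.128% to 0.208%. Small RNA ligation favours some sequences over others, so levels of different miRNAs are not molar amounts, and in bulk RNA fewer cells with a miRNA and less of it per cell cannot be told apart.

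The counts of miR-99a-5p and miR-100-5p were nearly proportional to each other. Their ratio was 0.981 to 0.986 in all 15 libraries, and the SD of its log2 was 0.00224. Among the 10 pairs of miRNAs in these files that differ by 1 base and have enough counts, the 5 pairs that differ at positions 16 to 19 had SDs of the log2 ratio between 0.00224 and 0.0266. The 5 pairs that differ at positions 9 to 13 had SDs between 0.184 and 0.414. Of the pairs with identical mature sequences, miR-199a-3p, made from 2 hairpins, had exactly 2 times the count of miR-199b-3p, made from 1 hairpin, in 15 of 15 libraries. The other identical pair, miR-365a-3p and miR-365b-3p, from 1 hairpin each, had equal counts in 14 of 15 libraries and a lowest ratio of 0.981. The count of miR-125b-5p, also made from 2 hairpins, was even in 11 of 15 libraries, so whether its reads were entered once per hairpin was not settled. Whether the reads of miR-99a-5p and miR-100-5p were separated at all was not tested, since the reads were not analysed here.

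**Figure D1:**
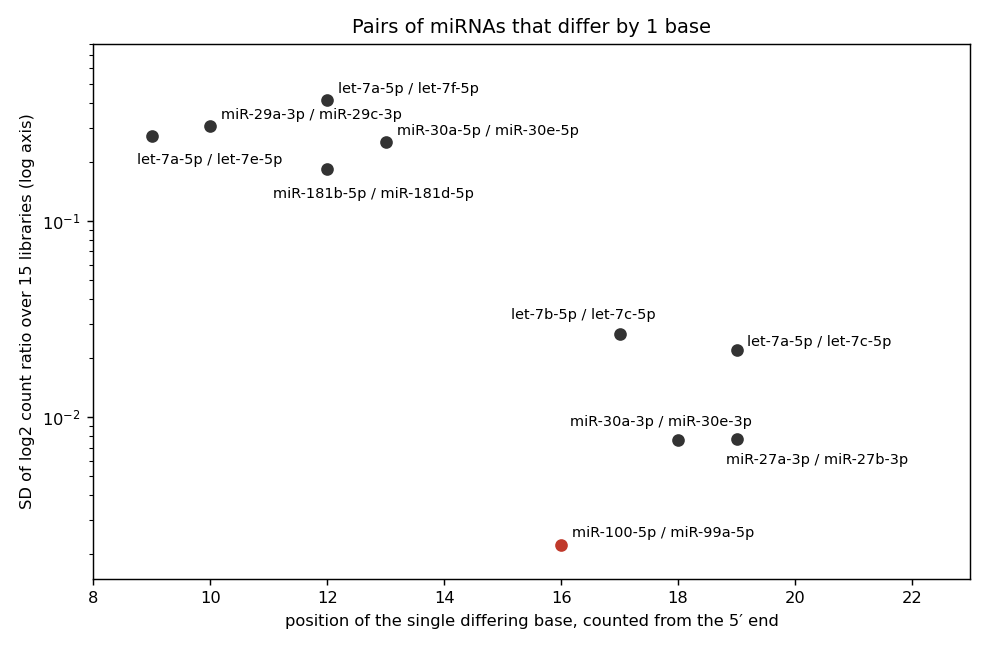
SD of the log2 count ratio over 15 libraries (vertical, log axis) against the position of the differing base (horizontal, counted from the 5′ end) for 10 pairs of miRNAs. The pairs that differ at positions 16 to 19 lie at or below 0.0266, and miR-100-5p / miR-99a-5p, in red, is lowest at 0.00224.

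Because the counts of miR-99a-5p and miR-100-5p carry nearly the same information, miR-99a-5p is given no separate account. Its values across groups were those of miR-100-5p times about 0.98, and which locus they come from cannot be told apart. When each group of miRNAs that share their first 15 bases was counted once, by its most abundant name, 40 miRNAs with 24.3% to 29.1% of the counts were left out. The remaining 5p members then took 20.3% to 29.2% of the counts, and miR-100-5p alone took 17.7% to 25.6%. miR-99b-5p and miR-125a-5p differ from their relatives at earlier positions, and the 3p arms are distinct, so these members carry values of their own.

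The arms of each hairpin were of very unequal abundance. In the normoxic Control libraries miR-100-3p was at 3.49, 2.39 and 5.09 CPM, and over all 15 libraries it ranged from 0.989 to 5.89 CPM, or 11 to 98 counts. The count of miR-100-5p was 22598 to 176226 times that of miR-100-3p, although it may include reads of miR-99a-5p. miR-99a-3p was at 5.92 to 17.1 CPM.

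MIR99B was the least one-sided of the hairpins MIR100, MIR99B and MIR125A, whose 5p products come from 1 locus each. Its 5p product had 7.68 to 11.1 times the count of its 3p product, miR-99b-3p, which lay at 248 to 422 CPM. miR-125a-5p had 42.4 to 71.6 times the count of miR-125a-3p, which lay at 33.7 to 53.6 CPM. Two-sided exact permutation tests of the arm ratios for loss of HIF1α and of HIF2α, each stratified by the other factor, gave no adjusted p below 0.05. The same was true of all 24 tests of the 12 ratios compared here. The design limits what these tests can show, since the smallest p it allows is 0.005 and a single ratio at that p would be adjusted to 0.12.

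miR-125b-5p was lower in cells without HIF1α. It was at 17896, 18469 and 18497 CPM in the hypoxic Control libraries and at 19930, 20587 and 20774 CPM in the HIF2α-KO libraries. In the HIF1α-KO libraries it was at 15492, 17602 and 17769 CPM, and in the HIF1α/HIF2α-KO libraries at 13127, 15026 and 16658 CPM. All 6 hypoxic libraries without HIF1α were therefore below all 6 with it, the only member of the 10 for which they did not overlap, against a background of 4.09% of the 562 miRNAs tested. For HIF2α the same split separated 0 of 10 members, against 1.42%.

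miR-125b-5p had a log2 fold change of -0.28 ± 0.069 (SE) for loss of HIF1α averaged over HIF2α status, with an adjusted p = 0.0254 in edgeR's quasi-likelihood test. It was the 1 member of 10 called in that comparison, in which 7.65% of all 562 miRNAs were called and 5.16% were called as lower. At an unadjusted p under 0.05 it was also the 1 member, against 21.4% of all miRNAs. A two-sided exact permutation test of HIF1α status within each HIF2α status gave p = 0.005 for miR-125b-5p, the smallest it can give, and 0.1 after adjustment over 20 tests of single members. The call is close to the threshold: the adjusted p rose above it in 9 of 12 fits that each left out 1 hypoxic library, in which the log2 fold change lay between -0.30 and -0.21.

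The call also depended on how the libraries were scaled. As a percentage of raw counts, miR-125b-5p was 1.43% to 1.89% in the libraries without HIF1α and 1.82% to 1.95% in those with it, and these ranges overlap. With scaling by total counts its log2 fold change was -0.16 with an adjusted p = 0.181 in edgeR's test, while the median of all miRNAs shifted by 0.12. Relative to that shift the value is -0.28 by construction, since such scaling changes each library by 1 constant. On quantile-normalized values limma gave -0.14 with an adjusted p = 0.562, and -0.17 relative to a shift of 0.03. Its direction was the same in all 24 alternatives.

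**Figure D2:**
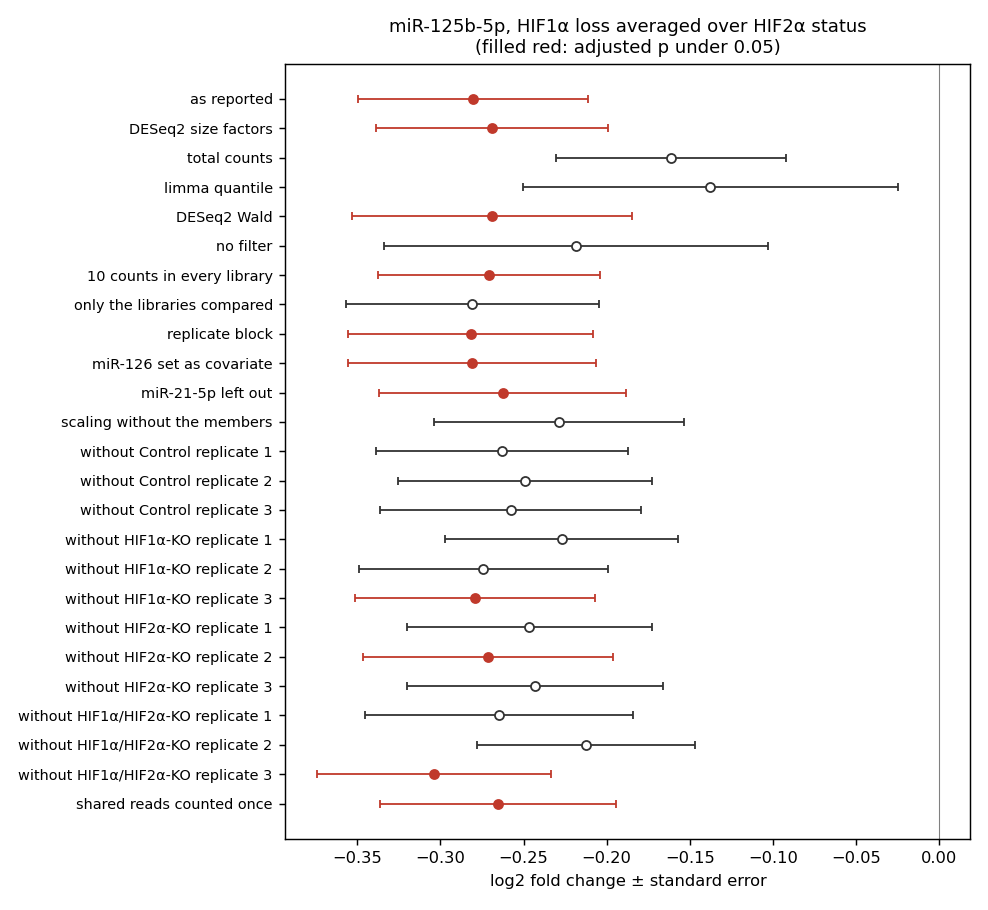
log2 fold change of miR-125b-5p for loss of HIF1α (horizontal, with SE) as reported and in 24 alternatives, 12 of which leave out 1 library. All values lie below 0, and 10 of the 24 alternatives, in filled red, have an adjusted p below 0.05.

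In single comparisons miR-125b-5p did not pass the threshold. HIF1α/HIF2α-KO minus Control gave -0.29 ± 0.098 (SE; adjusted p = 0.0742), and HIF1α-KO minus Control gave -0.11 ± 0.098 (adjusted p = 0.752), both in edgeR's test. The former was -0.17 without HIF1α/HIF2α-KO replicate 2. The latter was -0.01 without HIF1α-KO replicate 1, the lowest of its group, and -0.07 without Control replicate 2 or 3. HIF2α-KO minus Control gave 0.16 ± 0.098 (adjusted p = 0.511, edgeR), and 0.09 without HIF2α-KO replicate 3. The difference between the effects of HIF1α loss with and without HIF2α was -0.34 ± 0.14 (SE) with an adjusted p = 0.439 in edgeR's test of the interaction, and -0.22 without HIF1α/HIF2α-KO replicate 2. These comparisons share the Control libraries.

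Normoxic and hypoxic Control cells overlapped in miR-125b-5p. The normoxic libraries were at 17994, 18413 and 19322 CPM, and the difference was -0.02 ± 0.098 (SE; adjusted p = 0.955 in edgeR's test). By group mean the order was HIF2α-KO (20430 ± 443 CPM; SD, n = 3), normoxic Control (18576 ± 679), hypoxic Control (18287 ± 339), HIF1α-KO (16954 ± 1269) and HIF1α/HIF2α-KO (14937 ± 1767). The neighbours that overlapped were the 2 Control groups, and HIF1α-KO with HIF1α/HIF2α-KO.

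Libraries of these groups also differed in miR-126, an endothelial miRNA, whose 2 arms summed to 14.5 to 51.9 CPM in 9 libraries and to 3.90 to 6.95 CPM in 6. The 3 normoxic libraries were all in the higher set. Both sets held 3 libraries with and 3 without HIF1α among the hypoxic ones. In the higher set miR-125b-5p was at 17896 to 20774 CPM with HIF1α and at 13127 to 17602 CPM without it, and in the lower set at 18469 to 19930 CPM and 15492 to 17769 CPM. These ranges follow from the full separation of the 12 libraries and add nothing to it. With the miR-126 set as a covariate, the log2 fold change for HIF1α loss was -0.28 (adjusted p = 0.0338 in edgeR's test). For HIF1α/HIF2α-KO minus Control it was -0.28 (adjusted p = 0.109). Any other part of miR-126 in the result was not tested.

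An epithelial marker miRNA, miR-200c-3p, moved with miR-125b-5p. It was at 41.8 to 52.4 CPM in hypoxic Control, 43.5 to 57.6 CPM in HIF2α-KO, 34.8 to 39.0 CPM in HIF1α-KO and 30.4 to 35.7 CPM in HIF1α/HIF2α-KO libraries, with a log2 fold change of -0.48 ± 0.11 (SE) for HIF1α loss (adjusted p = 0.0198 in edgeR's test). The other 4 of the 5 epithelial markers were not called (adjusted p of 0.679 to 0.770), and none of the 5 was at 0 in any group. The 5 together summed to 47.0 to 102 CPM in hypoxic Control, 48.6 to 86.0 CPM in HIF2α-KO, 41.9 to 77.0 CPM in HIF1α-KO and 38.5 to 58.0 CPM in HIF1α/HIF2α-KO libraries. These sums, unlike the values of miR-200c-3p alone, were computed without TMM factors. The part of these 5 miRNAs in the difference of miR-125b-5p was not tested.

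Neither 3p arm of the MIR125B loci was called for HIF1α loss. miR-125b-1-3p, from chromosome 11, was at 800.3, 842 and 994 CPM in hypoxic Control cells, at 640, 746 and 945 CPM in HIF1α-KO cells and at 778, 895 and 934 CPM in HIF1α/HIF2α-KO cells. Its log2 fold change for HIF1α loss was -0.01 ± 0.13 (SE; adjusted p = 0.981 in edgeR's test). These groups overlapped throughout.

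miR-125b-2-3p, from chromosome 21, was at 299, 367 and 397 CPM in hypoxic Control cells and at 300, 319 and 347 CPM in HIF1α/HIF2α-KO cells. It was at 346, 375 and 667 CPM in HIF2α-KO cells, where replicate 2 gave the high value, and at 309, 319 and 403 CPM in HIF1α-KO cells. Its log2 fold change for HIF1α loss was -0.28 ± 0.15 (SE; adjusted p = 0.324), and -0.08 ± 0.11 (adjusted p = 0.742) without HIF2α-KO replicate 2, both in edgeR's test.

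The MIR125B loci were compared through the ratio of their 3p arms, since miR-125b-5p cannot be divided between them. Whether this ratio follows the output of the loci was not tested. The count of miR-125b-1-3p was 3.23, 3.31 and 3.83 times that of miR-125b-2-3p in normoxic Control cells and 2.18, 2.50 and 2.82 times in hypoxic Control cells. These groups did not overlap, and the mean log2 ratio was 0.47 lower in 1% O2 (exact permutation test, two-sided p = 0.1, which 3 libraries against 3 cannot go below). The ratio of miR-100-5p to miR-125b-1-3p did not overlap between them either, and its mean log2 was 0.21 higher in 1% O2. The higher miR-126 set held all 3 normoxic but only 1 hypoxic Control library, and its part in these ratios was not tested. The lowest ratio of miR-125b-1-3p to miR-125b-2-3p, 0.924, was that of HIF2α-KO replicate 2. In the averaged tests this log2 ratio differed by 0.25 for HIF1α loss and -0.13 for HIF2α loss, with adjusted p = 0.789 for both in the stratified exact permutation test, and by 0.02 and 0.09 without that library.

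In the comparison of oxygen levels itself, no member passed the test. edgeR called 0 of the 10 members and 0.0% of the 562 miRNAs, DESeq2 and limma called 0 members, and 0 members had an unadjusted p under 0.05, against 6.23% of all miRNAs. The groups did not overlap for 1 member, miR-125b-1-3p (999, 1019 and 1379 CPM in 21% O2; log2 fold change -0.37 ± 0.19, SE; adjusted p = 0.724 in edgeR's test), against a background of 17.8%. Without normoxic Control replicate 3, the highest, that value was -0.19. The members' median log2 fold change was -0.14, and that of all miRNAs 0.01. miR-210-3p, the best known miRNA target of HIF1α, gave -0.19 ± 0.30 (SE; adjusted p = 0.841, edgeR) in the same comparison.

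miR-100-5p, the most abundant member, had a wider relative spread between replicates than miR-125b-5p in each hypoxic group. It was at 166770, 171689 and 172783 CPM in normoxic Control cells and at 145717, 148114 and 170176 CPM in hypoxic Control cells. HIF1α-KO libraries held 128618, 160532 and 174207 CPM and HIF1α/HIF2α-KO libraries 123265, 150210 and 166091 CPM. The HIF2α-KO libraries, at 174883, 175666 and 194244 CPM, were above the 12 libraries of the other groups, with a log2 fold change over hypoxic Control of 0.23 ± 0.13 (SE; adjusted p = 0.434 in edgeR's test). This separation depended on the scaling. As a percentage of raw counts they were at 15.71% to 17.7%, overlapping hypoxic Control at 14.35% to 17.39%. Over the 12 alternatives that kept all libraries of both groups, the log2 fold change ran from -0.11 to 0.24, and its sign changed in 1 of them. The loss of HIF1α gave -0.16 ± 0.091 (adjusted p = 0.368, edgeR). It was -0.07 without HIF1α/HIF2α-KO replicate 2, -0.08 without HIF1α-KO replicate 1 and -0.09 without Control replicate 1.

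miR-99b-5p was higher in HIF1α-KO than in hypoxic Control cells, without overlap but not beyond the threshold. It was at 2471, 2849 and 2951 CPM in hypoxic Control cells and at 2989, 3358 and 4135 CPM in HIF1α-KO cells, a log2 fold change of 0.34 ± 0.15 (SE; unadjusted p under 0.05, adjusted p = 0.399 in edgeR's test). Without HIF1α-KO replicate 3, the highest of its group, it was 0.21. HIF2α-KO libraries held 2566, 3461 and 3582 CPM and HIF1α/HIF2α-KO libraries 2778, 2906 and 3340 CPM, each overlapping the Control libraries.

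The ratio of miR-99b-5p to miR-100-5p, which does not depend on library scaling, was 0.0170, 0.0173 and 0.0192 in hypoxic Control cells and 0.0209, 0.0232 and 0.0237 in HIF1α-KO cells. It was 0.0147, 0.0184 and 0.0197 in HIF2α-KO cells and 0.0194, 0.0201 and 0.0225 in HIF1α/HIF2α-KO cells. Loss of HIF1α thus went with a log2 ratio higher by 0.29, the lowest p among the 24 ratio tests (stratified exact permutation test, p = 0.01, adjusted p = 0.12). The reverse pair, miR-99a-5p to miR-99b-5p, gave -0.29 with the same p values, as its counts were nearly those of miR-100-5p. Both ratios were adjusted as separate tests although they carry nearly the same information. This lowers the adjusted p of each, which would be higher had the pair been entered once.

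The products of MIR125A had lower means in both groups without HIF2α than in hypoxic Control cells, but no difference passed the adjusted test. miR-125a-3p was at 45.0, 48.3 and 48.5 CPM in hypoxic Control cells, 33.7, 36.1 and 44.5 CPM in HIF2α-KO cells and 37.2, 42.2 and 43.8 CPM in HIF1α/HIF2α-KO cells, with neither knockout overlapping Control. HIF2α-KO minus Control gave a log2 fold change of -0.31 ± 0.14 (SE; adjusted p = 0.316), and HIF2α loss averaged over HIF1α status gave -0.22 ± 0.10 (adjusted p = 0.252), both in edgeR's test and both with an unadjusted p under 0.05.

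miR-125a-5p was at 2055, 2428 and 3150 CPM in hypoxic Control cells, at 1810.0, 2300 and 3184 CPM in HIF2α-KO cells and at 1822, 1948 and 2450 CPM in HIF1α/HIF2α-KO cells. The HIF1α-KO libraries, at 2777, 2857 and 3189 CPM, were above all HIF1α/HIF2α-KO libraries. Its log2 fold change for HIF2α loss was -0.29 ± 0.14 (SE; adjusted p = 0.289 in edgeR's test), and its ratio to miR-125b-5p, 0.0908 to 0.187 over the hypoxic libraries, gave adjusted p = 0.5 for either factor in the stratified exact permutation test.

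miR-99b-3p was at 322, 325 and 369 CPM in hypoxic Control cells and at 297, 300 and 319 CPM in HIF1α/HIF2α-KO cells, which did not overlap. The log2 fold change was -0.15 ± 0.14 (SE; adjusted p = 0.597 in edgeR's test), -0.06 without Control replicate 2 and -0.10 without HIF1α/HIF2α-KO replicate 2. In the HIF1α/HIF2α-KO libraries the count of miR-99b-5p was 9.12 to 11.1 times that of miR-99b-3p, above all Control libraries in 1% O2, at 7.68 to 9.08 times, and the same held in HIF2α-KO libraries, at 9.48 to 10.6 times. The exact permutation test gave p = 0.1 for each of these, the smallest it allows, and the averaged test of HIF2α loss gave an adjusted p = 0.5.

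**Figure D3:**
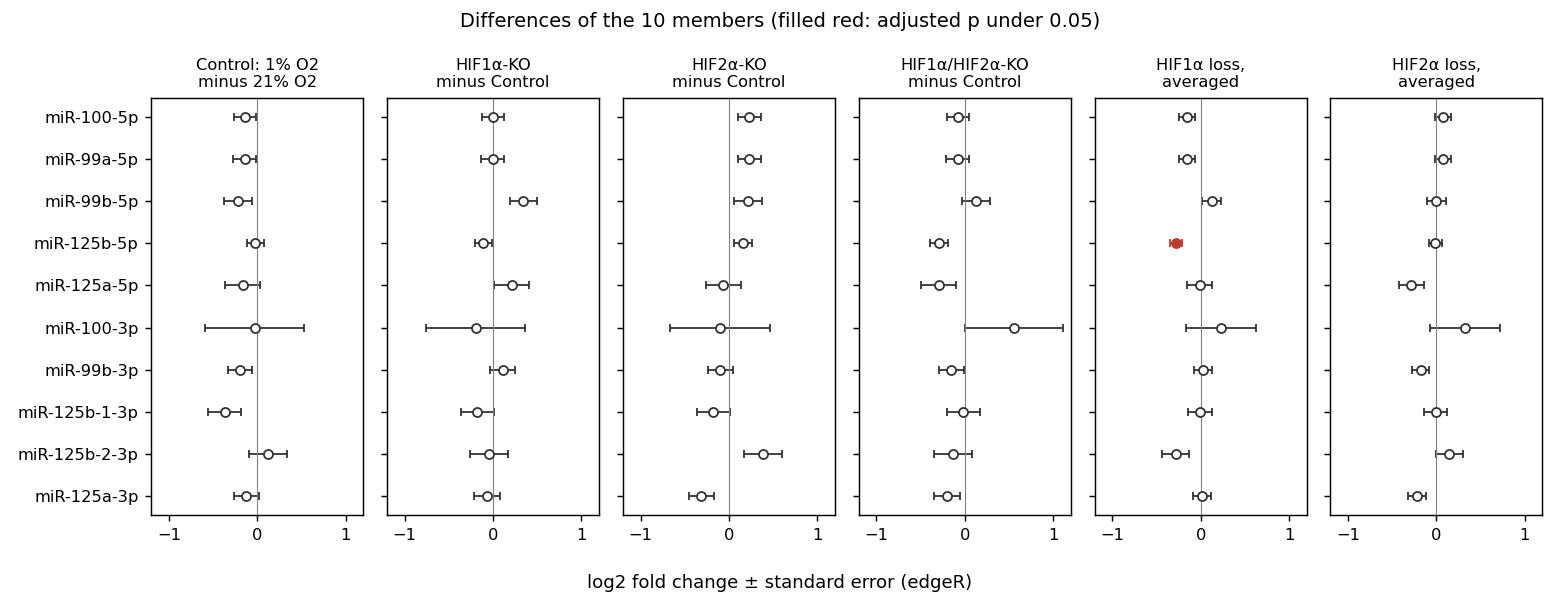
log2 fold change with SE (horizontal) of the 10 members in 6 comparisons, fitted by edgeR. Only miR-125b-5p for HIF1α loss, in filled red at -0.28, has an adjusted p below 0.05, and miR-100-3p has the widest errors.

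Counted over the families, the edgeR fit of all libraries, DESeq2 and limma called no member in any of the 3 comparisons of a knockout with hypoxic Control cells. Quantile normalization gives the top-ranked miRNAs nearly the same value in every library, so limma could show little for miR-100-5p and miR-99a-5p in any comparison. With a filter of at least 10 counts in every library, edgeR called miR-125b-5p for HIF1α/HIF2α-KO (log2 fold change -0.32, adjusted p = 0.0416). HIF1α-KO called 0 of 10 members against 1.25% of all miRNAs, HIF2α-KO 0 of 10 against 0.0%, and HIF1α/HIF2α-KO 0 of 10 against 5.87%, with 1 member at an unadjusted p under 0.05 in each, against 11.9%, 15.3% and 24.4% of all miRNAs. The groups did not overlap for 2, 4 and 3 members, against 21.5%, 16.4% and 30.4% of all miRNAs. The 4 for HIF2α-KO include both miR-100-5p and miR-99a-5p, whose counts carry nearly the same information. So do the 3 for HIF2α-KO minus HIF1α-KO, given next. HIF2α-KO minus HIF1α-KO called 0 of 10 against 1.07%, with 1 member at an unadjusted p under 0.05 (miR-125b-5p, log2 fold change 0.27 ± 0.098, SE, and 0.17 without HIF2α-KO replicate 3), against 17.4%, and 3 members that did not overlap, against 20.5%. Averaged HIF2α loss called 0 members against 2.49%, and the interaction 0 against 0.0%. Each had 1 member at an unadjusted p under 0.05, miR-125a-3p for HIF2α loss and miR-125b-5p for the interaction, against 18.9% and 10.5%.

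As a check of the HIF state, miR-210-3p was at 1042 ± 109 CPM (SD, n = 3) in hypoxic Control and 309 ± 110 in HIF1α-KO cells. It was at 1550 ± 404 CPM in HIF2α-KO and 225 ± 108 CPM in HIF1α/HIF2α-KO cells. Normoxic Control cells held 1187 ± 151 CPM, and their libraries overlapped those of hypoxic Control. The check thus showed lower levels without HIF1α but no rise from normoxic to hypoxic Control cells. The mRNAs of HIF1A and EPAS1 were not measured by this assay. miR-21-5p and miR-10b-5p, abundant in glioma lines, were found in all libraries, at 168310 to 258423 CPM together. This sum and the sums given next were computed without TMM factors. Summed levels of other marker miRNAs were 1.56 to 5.65 CPM for 4 leukocyte, 2.13 to 18.9 CPM for 3 erythroid, 1.60 to 47.2 CPM for 3 muscle, 38.5 to 102 CPM for 5 epithelial and 247 to 424 CPM for 2 neuronal miRNAs. Some sums came mostly from 1 miRNA. With TMM factors, the neuronal miR-129-5p was at 251 to 430 CPM, while miR-124-3p was at 0 in 10 libraries and at most 0.539 CPM. The muscle miRNA miR-1-3p reached 41.8 CPM, against at most 3.59 CPM for miR-133a-3p and 0.227 CPM for miR-206. Apart from miR-200c-3p, no tested miRNA of these 5 lists was called for HIF1α loss.

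Of the other mature products of the 3 loci, 6 were tested: miR-99a-3p, let-7a-2-3p, and both arms of let-7c and of let-7e. let-7a-5p, which comes from other loci too, was not among them. Of these 6 products 0 passed the test in any of the 8 comparisons in edgeR. let-7c-5p, a member of the let-7 family of growth-restraining miRNAs encoded beside MIR99A, had a log2 fold change of -0.29 ± 0.12 (SE) for HIF1α loss with an adjusted p = 0.174 in edgeR's test, and its counts followed those of let-7b-5p and let-7a-5p, from which it differs at positions 17 and 19. miR-99a-3p, which is counted apart from MIR100, was at 6.92, 7.48 and 8.75 CPM in hypoxic Control cells and at 9.24, 12.7 and 17.1 CPM in HIF2α-KO cells. The log2 fold change was 0.76 ± 0.27 (SE; adjusted p = 0.238, edgeR).

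Among 237 miRNAs with a mean of at least 10 CPM, the one whose log2 CPM followed miR-125b-5p most closely over the 15 libraries was miR-210-3p (Pearson's r = 0.876), followed by miR-2277-5p (0.808) and miR-598-3p (0.776). For miR-100-5p these were miR-874-3p (0.791), miR-769-5p (0.781) and miR-181c-3p (0.736). For miR-99b-5p they were miR-2110 (0.701), miR-330-3p (0.673) and miR-3934-5p (0.672). For miR-125a-5p they were let-7e-3p (0.800), which is encoded within the same 728 bases, miR-130b-5p (0.702) and miR-505-3p (0.701). All points share their libraries and scaling and fall into groups, so these values are descriptions without a test.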

How the data were processed

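The members and all lists, ratios and tests were chosen with earlier results of these data known. The files deposited by the authors hold 1 raw count for every mature miRNA in each of 15 libraries, with no normalization applied. The submitters' processing notes list HISAT2, StringTie and DESeq2, and the study's methods name limma quantile normalization, which the deposited counts do not include. The alignment settings, the rule for reads that fit several miRNAs and the genome build of the files are not given in the sources used here. The files carry no coordinates. Loci were taken from GENCODE v29 (GRCh38) and sequences from RefSeq (GRCh38.p14), which held all 10 members.

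Counts were normalized with TMM factors, kept by filterByExpr (562 of 1707 miRNAs) and fitted in 1 edgeR 4.0.16 model of all 15 libraries (R 4.3.3), with quasi-likelihood tests of 8 contrasts and Benjamini-Hochberg adjustment over the 562, at 0.05. HIF1α loss was the mean of HIF1α-KO and HIF1α/HIF2α-KO minus the mean of Control and HIF2α-KO, all in 1% O2, and HIF2α loss likewise. Count ratios used 0.5 added counts. Exact permutation tests over the 12 hypoxic libraries permuted one factor within the other (400 permutations). Alternatives used DESeq2 1.42.0 and limma 3.58.1, the latter on log2 values computed from the deposited counts with a pseudocount of 1 CPM.

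Named miRNAs were the 10 members, the other arms of their loci, miR-10a-5p and miR-10b-5p, miR-210-3p, and for each 5p member the 3 miRNAs with the highest Pearson's r. On simulated data with 200 miRNAs changed by a log2 fold change of 2, modelled on HIF1α-KO minus Control, 197 of the changed miRNAs were among the 567 tested, and edgeR recovered 93.9% of them with 5.61% false calls. Changes as small as those of the members, such as -0.28 for miR-125b-5p, were not simulated, so recovery at that size is not known. No replicates were copies (smallest chi-square per degree of freedom 50.9). In the smallest library 3 counts equalled 0.290 CPM without TMM factors, a floor for counting error only, and the lowest count of any member was 11.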

Additional observations from a re-analysis of the deposited data

How the results depend on the processing

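The count of members called stayed at 0 or 1 in every comparison and alternative. For HIF1α loss, where 1 member (miR-125b-5p) was called, 0 were called with scaling by total counts, quantile-normalized limma, no filter on low counts (adjusted p = 0.518, with 1707 miRNAs tested), only the libraries compared (adjusted p = 0.0565) and scaling without the members (adjusted p = 0.0931). Leaving out 1 library gave 0 to 1, with 1 only without HIF1α-KO replicate 3, HIF2α-KO replicate 2 or HIF1α/HIF2α-KO replicate 3. Without HIF1α/HIF2α-KO replicate 2 the log2 fold change of miR-125b-5p was -0.21, and for HIF1α/HIF2α-KO minus Control -0.17 against -0.29. That comparison had 1 call in place of 0 when at least 10 counts were asked for in every library (adjusted p = 0.0416 for miR-125b-5p). The cause was not tested. The adjusted p of miR-125b-5p for HIF1α loss ranged from 0.0215 to 0.562 over the alternatives.

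Replicate numbers were shared between groups, but correlations of same-numbered deviations had mixed signs: with hypoxic Control, -0.617 to 0.554 for HIF1α-KO, 0.0533 to 0.480 for HIF2α-KO, -0.165 to 0.408 for HIF1α/HIF2α-KO and -0.240 to -0.0580 for normoxic Control, and -0.449 to 0.0654 between the single knockouts. No set of pairs was above 0.1 throughout, so the numbers were not taken to pair the libraries. A replicate block gave -0.28 with an adjusted p = 0.0449 for miR-125b-5p and HIF1α loss, 0 members in the other comparisons and 0 ratios.

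Over all miRNAs, calls ranged over the alternatives without leave-outs from 27 to 47 for HIF1α loss (43 as reported), 9 to 36 for HIF2α loss (14), 26 to 61 for HIF1α/HIF2α-KO (33), 0 to 12 for HIF1α-KO (7), 0 to 20 for HIF2α-KO minus HIF1α-KO (6), 0 to 15 for hypoxic minus normoxic Control (0), 0 to 11 for HIF2α-KO (0) and 0 to 5 for the interaction (0). Of the HIF1α loss calls 67.4% were lower as reported and 31.0% with total counts. Counting shared reads once, chosen after seeing the data, kept the call of miR-125b-5p (-0.27, adjusted p = 0.0365). miR-100-3p, at 11 to 98 counts, had SEs of 0.396 to 0.791 on the log2 scale over the 8 contrasts.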

Other observations

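miR-10a-5p and miR-10b-5p, more distant relatives of the miR-99/100 family encoded in the HOX clusters, were compared in the same way. miR-10a-5p lay between 1806 and 3765 CPM and miR-10b-5p between 2258 and 4029 CPM over the 15 libraries, levels close to those of miR-99b-5p. For HIF1α loss their log2 fold changes were 0.13 ± 0.20 (SE; adjusted p = 0.775) and 0.18 ± 0.11 (SE; adjusted p = 0.373) in edgeR's test, and neither passed the threshold.

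The difference between the effects of HIF1α loss with and without HIF2α was, for miR-99a-3p, a log2 value of -1.08 ± 0.39 (SE; adjusted p = 0.393 in edgeR's test of the interaction). It was at 9.82, 9.94 and 13.2 CPM in HIF1α-KO cells and at 5.92, 8.33 and 12.1 CPM in HIF1α/HIF2α-KO cells.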
